A study of Mus musculus with 12 samples.

Results

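The 9 rows described here count genes of oxidative defence and of the pentose phosphate pathway in mouse nasal tissue, out of 55487 gene rows. They were taken by name: Gclc, Gclm, Gstm1, Prdx1, Hmox1, Pon2, Ikbkg, Taldo1 and Ccdc152. Pon2, Ikbkg and Ccdc152 are included together with the genes whose exons overlap theirs on the other strand, which are Gm44424, G6pdx and Selenop. The filter on low counts kept 8 of the 9 rows, and Hmox1 did not pass it. The study compared RNA from the noses of C57BL/6 males of 6 weeks after exposure to KDP20, a diesel particle preparation per the series title, and after the PBS vehicle. There were 4 libraries of vehicle, labelled day 10 (replicates 2, 4, 5 and 6), 4 of KDP20 at day 5 (replicates 5, 6, 7 and 8) and 4 of KDP20 at day 10 (replicates 1, 2, 3 and 5). The labels name no transgene or gene deletion for any group, and no source used here gives the dose or the route of exposure. Day 10 against vehicle is matched on day, whereas at day 5 against vehicle the exposure and the day of collection differ together and cannot be told apart. Nothing in the labels ties each library to its own animal. The p-values below then speak of the spread from library to library alone, which may be technical.

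Cells meet oxidants from particles with a set of enzymes that are under shared control. Glutathione, the main small thiol of the cell, is made by glutamate-cysteine ligase, which has a catalytic subunit (Gclc) and a modifier subunit (Gclm). Glutathione S-transferases such as Gstm1 attach it to reactive compounds, and peroxiredoxins such as Prdx1 reduce peroxides. Hmox1 breaks down heme, Pon2 is an intracellular paraoxonase that limits oxidative stress, and Selenop is a secreted protein that carries selenium to selenium-dependent antioxidant enzymes. The pentose phosphate pathway supplies the NADPH that keeps glutathione and thioredoxin reduced: G6pdx catalyses its first step and Taldo1, transaldolase, acts in its non-oxidative branch. Ikbkg is the regulatory subunit of the kinase complex that activates NF-kB. The transcription factor Nrf2 (gene Nfe2l2) drives many genes of this kind by binding the antioxidant response element. In the nose, the olfactory epithelium and its glands are known for strong expression of detoxifying enzymes.

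A row is named for a gene, but no source used here gives the strand setting of the counting. Actb, the abundant cytoskeletal actin, had only 23 to 217 counts in its own row per library. A row's counts are therefore not sure to be reads of the gene it is named after, and for overlapping genes the reads of both cannot be told apart. Marker genes were looked up in their own rows. A count in every library was found for 7 of 8 olfactory sensory neuron markers and 8 of 8 markers of sustentacular cells and Bowman glands. The same held for 7 of 7 of ciliated cells and 5 of 5 of basal cells, but also for 5 of 6 bone and cartilage markers. For T and B cells it was 4 of 8, and 2 of 7 each for macrophages and erythroid cells. Such counts do not identify the tissue, and own rows carry the doubt given above. Of the 8 neutrophil markers, 3 had a count in every library and 2, S100a8 and Ly6g, were at 0 in all 12. Depth ran from 1658420 to 3227138 counts per library, so 3 counts, the limit that a count of 0 allows, stood for 0.930 to 1.81 CPM (counts per 1000000 counts of the library) on the unscaled totals, for counting error only. One row, CT010467.2, took 7.25% to 10.1% of the counts in vehicle libraries, 9.69% to 12.6% at day 5, and 11.2%, 25.5%, 17.9% and 22.9% in day 10 replicates 1, 2, 3 and 5. Day 10 replicates 2, 3 and 5 thus stood apart from the other 9 libraries in this share, and each call of a member on day 10 below is also given with replicate 1 as the sole day 10 library.

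On GRCm38 (GENCODE M21), the synthesis genes are Gclc (ENSMUSG00000032350, chr9:77754535-77794485, plus strand) and Gclm (ENSMUSG00000028124, chr3:122245557-122270732, plus strand). Gstm1 (ENSMUSG00000058135, chr3:108012255-108017973) is on the minus strand, and Prdx1 (ENSMUSG00000028691, chr4:116685544-116700822) and Hmox1 (ENSMUSG00000005413, chr8:75093621-75100589) are on the plus strand. Taldo1 (ENSMUSG00000025503, chr7:141392199-141402968) is on the plus strand. Pon2 (ENSMUSG00000032667, chr6:5264147-5298455) runs on the minus strand, and its exons overlap those of Gm44424 by 680 bases at chr6:5279655-5280334. Ikbkg (ENSMUSG00000004221, chrX:74393290-74453854) runs on the plus strand, and its exons overlap those of G6pdx by 418 bases at chrX:74427762-74428179, of which 120 are coding bases of G6pdx. Ccdc152 (ENSMUSG00000091119, chr15:3280070-3303526) runs on the minus strand and meets Selenop tail to tail, with 439 bases shared at chr15:3280070-3280508 that are untranslated exon in both genes. These 439 bases make up 32.3% of the exon bases of Ccdc152 and 15.4% of those of Selenop. Gclm also overlaps Gm17494, a processed transcript on the other strand, by 296 bases at chr3:122256676-122256971.

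The start regions of the members are shown because Nrf2 acts through a short sequence at such sites. RefSeq promoter windows on GRCm38.p6 (250 bases before to 50 after a transcription start) were found for 7 of the 9 members, with 11 windows among them, and not for Gclc or Hmox1. They were searched on both strands for TGACNNNGC, the core letters of the antioxidant response element. These letters stood in 4071 of 32851 windows of this length, which is 12.4%, and in 4 of the 11 member windows, those of Gclm, Prdx1, Pon2 and the start of Ikbkg at chrX:74424612, as well as in the window of G6pdx. Each stretch of 30 bases below is written 5′ to 3′ on the strand of the gene, with the match in capitals; in all 5 the motif reads on the other strand.
Gclm, chr3:122245413-122245442, plus strand: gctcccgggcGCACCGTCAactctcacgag
Prdx1, chr4:116685456-116685485, plus strand: cagggaaagcGCTGAGTCAtcccccgtagg
Pon2, chr6:5298308-5298337, minus strand: gtccggagctGCTCGGTCAggcccgagcca
Ikbkg, chrX:74424564-74424593, plus strand: ggactggtctGCTGAGTCAcagttgcccca
G6pdx, chrX:74428918-74428947, minus strand: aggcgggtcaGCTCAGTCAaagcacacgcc
In Prdx1 and Ikbkg the motif reads TGACTCAGC, so that it also holds the letters TGACTCA of the AP-1 site. Another RefSeq start of Ikbkg, at chrX:74429315, lies 435 bases from the G6pdx start at chrX:74428880 and points the other way, and the 2 windows share 66 bases. A match is a description of letters and not of binding, which was not measured.

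The starts of Taldo1 and Ccdc152, the rows that were lower at day 10, and of Selenop, which lies opposite Ccdc152, held no match within their windows. The 250 bases before each start are given without capitals, since none of them is part of a match. Taldo1 is read at chr7:141391910-141392159 on the plus strand, Ccdc152 at chr15:3303527-3303776 on the minus strand and Selenop at chr15:3270517-3270766 on the plus strand.
Taldo1: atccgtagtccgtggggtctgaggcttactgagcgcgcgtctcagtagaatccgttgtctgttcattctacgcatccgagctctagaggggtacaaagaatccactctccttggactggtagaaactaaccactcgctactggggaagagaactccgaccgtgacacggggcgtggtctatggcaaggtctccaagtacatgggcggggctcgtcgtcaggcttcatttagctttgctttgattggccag
Ccdc152: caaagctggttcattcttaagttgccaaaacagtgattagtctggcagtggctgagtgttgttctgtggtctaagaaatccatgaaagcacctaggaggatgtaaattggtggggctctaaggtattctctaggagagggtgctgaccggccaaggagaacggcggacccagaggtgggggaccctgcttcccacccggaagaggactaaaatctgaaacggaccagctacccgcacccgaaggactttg
Selenop: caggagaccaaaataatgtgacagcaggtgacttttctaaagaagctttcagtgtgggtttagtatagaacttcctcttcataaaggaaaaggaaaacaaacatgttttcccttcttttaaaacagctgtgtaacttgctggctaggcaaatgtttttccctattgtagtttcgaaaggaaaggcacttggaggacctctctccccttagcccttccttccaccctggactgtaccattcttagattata

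Levels differed widely among the 9 rows. Compared per kilobase of exon in vehicle libraries, the mean level was 242 CPM per kb for Ccdc152, 11.7 for Ikbkg, 9.59 for Gstm1, 6.05 for Pon2, 2.94 for Gclc, 2.58 for Taldo1, 1.66 for Gclm, 1.44 for Prdx1 and 0.248 for Hmox1. Raw counts are given for every row, since several of them were low. CPM values from here on use library sizes scaled with TMM and are not divided by length. Values are listed throughout in the order vehicle replicates 2, 4, 5 and 6, then day 5 replicates 5, 6, 7 and 8, then day 10 replicates 1, 2, 3 and 5.

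**Figure D1:**
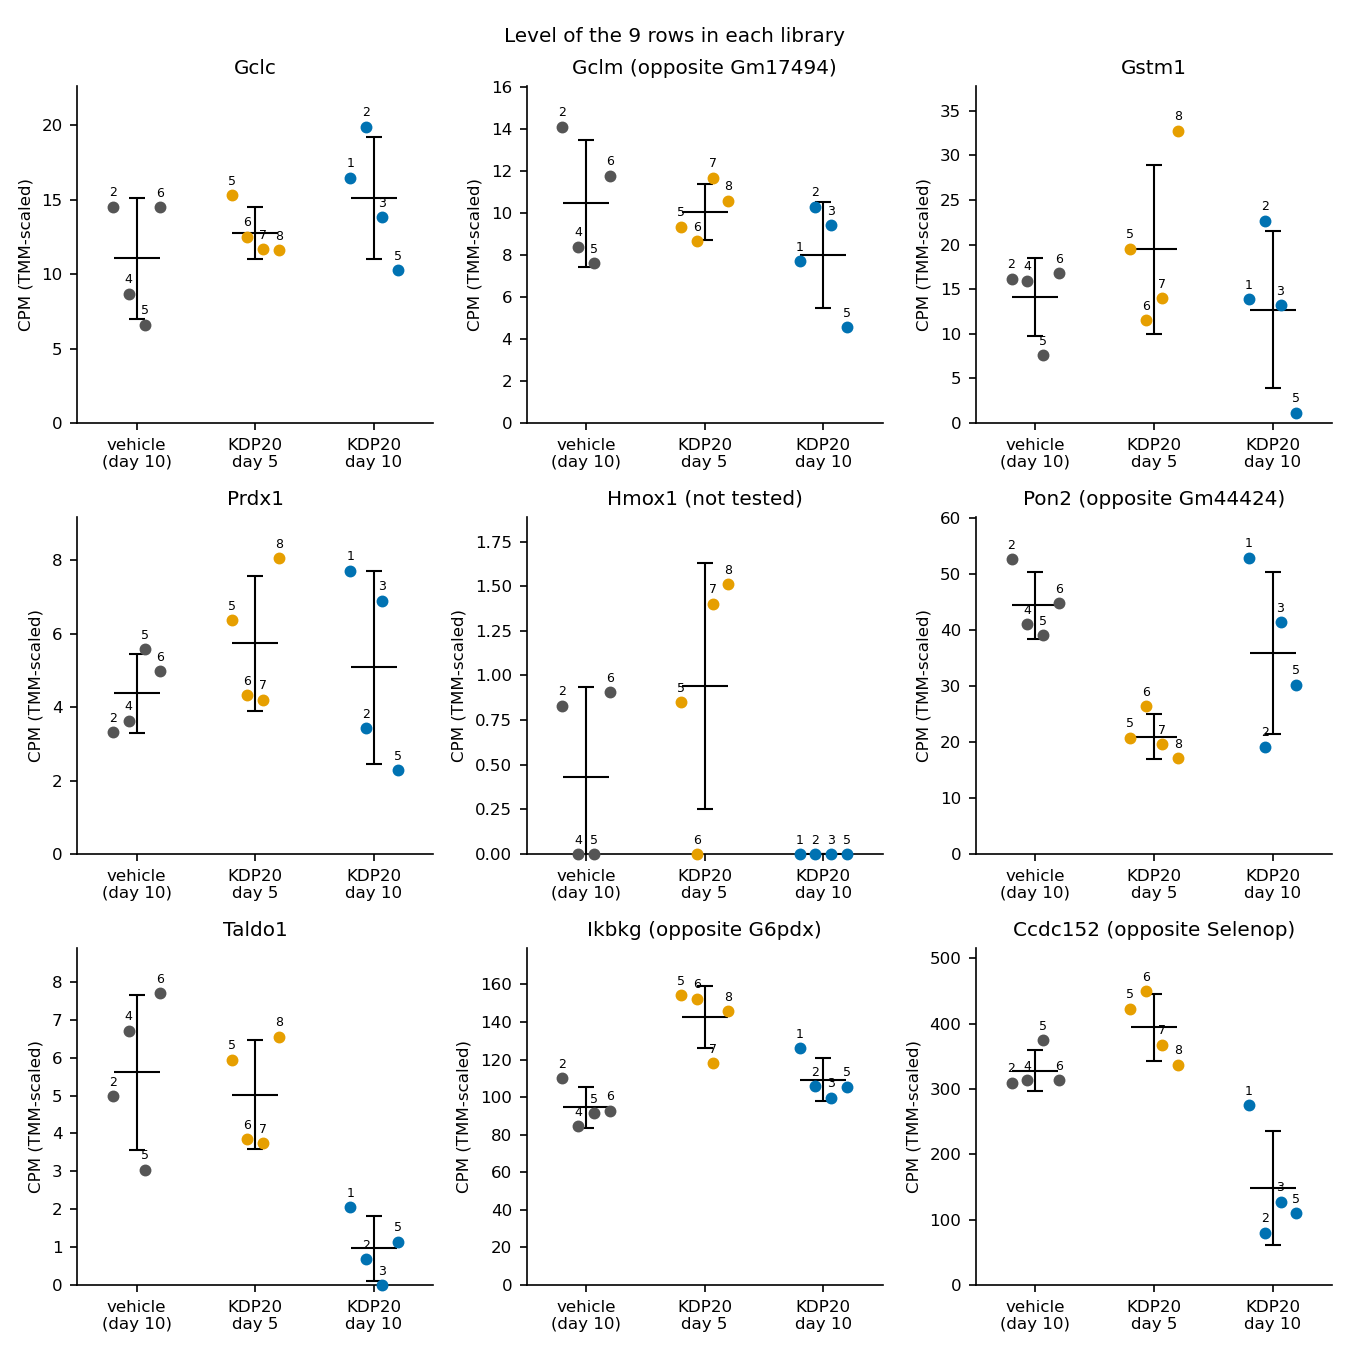
Level of each of the 9 rows in every library, in CPM of the TMM-scaled library size, with 1 panel per row and its own axis from 0. Points are libraries with their replicate numbers, and black bars are the mean and SD of the 4 libraries of a group; the 4 day 10 libraries of Ccdc152 and of Taldo1 lie below all 8 others, and the 4 day 5 libraries of Pon2 lie below and of Ikbkg above all 4 vehicle libraries.

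Of the 8 tested rows, 2 fell and none rose at day 10 against vehicle, where 7.08% of the 13181 tested rows were called, 3.93% higher and 3.15% lower. The 2 rows were Taldo1 and Ccdc152. At day 5 against vehicle Ikbkg rose and Pon2 fell, beside a background of 0.66% called (0.41% higher and 0.25% lower). Between the exposed groups Pon2 was higher at day 10 than at day 5 and Taldo1 and Ccdc152 were lower, beside 10.1% of all rows (4.66% higher and 5.49% lower). At an unadjusted p under 0.05 the members numbered 2, 2 and 4 of 8 in these comparisons, beside 23.8%, 16.3% and 24.7% of all tested rows. A call is a Benjamini-Hochberg adjusted p under 0.05 over all tested rows in the edgeR quasi-likelihood test. The median log2 fold change of the 8 rows was −0.24 at day 10 against vehicle, 0.24 at day 5 against vehicle and −0.36 at day 10 against day 5, while the median of all tested rows was −0.01, −0.03 and 0.01. These comparisons share their groups, so their values are not independent of each other. In bulk samples like these, fewer cells of a type and less RNA per cell cannot be told apart.

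**Figure D2:**
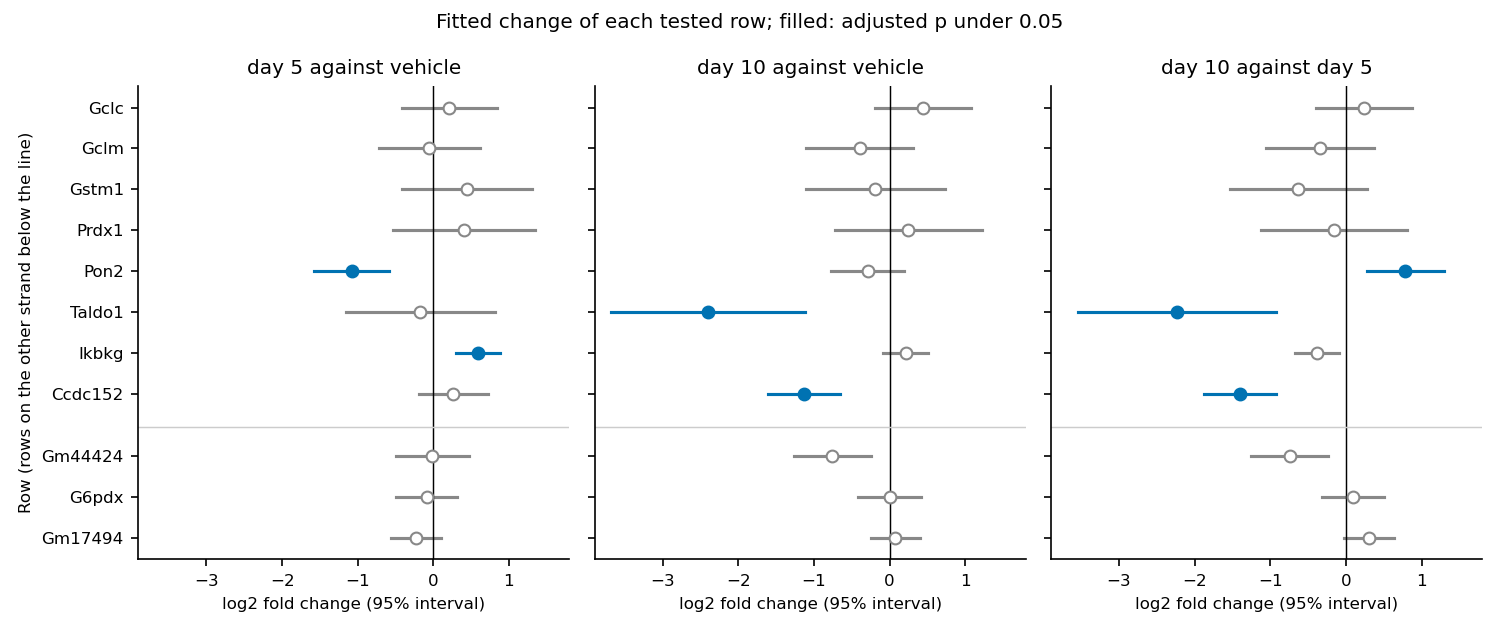
Fitted log2 fold change of the 8 tested rows and, below the line, of 3 rows on the other strand, with 95% intervals, in 1 panel per comparison. Filled points passed an adjusted p under 0.05: Ikbkg and Pon2 at day 5 against vehicle, Taldo1 and Ccdc152 at day 10 against vehicle, and these last rows and Pon2 at day 10 against day 5.

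Glutathione synthesis showed no call in any of the 3 comparisons. Gclc, the catalytic subunit of glutamate-cysteine ligase, had 35, 31, 13 and 32 raw counts in vehicle, 36, 26, 25 and 23 at day 5 and 32, 29, 22 and 18 at day 10. Its 3 groups overlapped, with vehicle replicate 5 the lowest of the 12 libraries. The mean was 11.1 ± 4.06 CPM in vehicle, 12.8 ± 1.73 at day 5 and 15.1 ± 4.08 at day 10 (SD, n = 4 each). The order of the means ran from vehicle to day 10, but no neighbours in it differed beyond their spread. The log2 fold change at day 10 against vehicle was 0.44 (SE 0.31, 95% interval −0.19 to 1.08, adjusted p = 0.402 by edgeR), an interval that covers a fall as well as a rise.

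Gclm, the modifier subunit, had 34, 30, 15 and 26 raw counts in vehicle, 22, 18, 25 and 21 at day 5 and 15, 15, 15 and 8 at day 10. Replicates 1, 2 and 3 of day 10 held the same count as the lowest vehicle library, and replicate 5 held fewer. After scaling the groups overlapped, at 10.5 ± 3.02 CPM in vehicle, 10.1 ± 1.34 at day 5 and 8.00 ± 2.53 at day 10. The log2 fold change at day 10 against vehicle was −0.40 (SE 0.34, 95% interval −1.10 to 0.31, adjusted p = 0.519 by edgeR). Gclc and Gclm, whose products form 1 enzyme, thus had estimates of opposite sign at day 10, neither past the threshold and with overlapping intervals. Gm17494, on the other strand from Gclm, had 2338 counts over the 12 libraries against 244 for Gclm, and its log2 fold change at day 10 against vehicle was 0.08 (SE 0.16, adjusted p = 0.817 by edgeR).

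Gstm1, which conjugates glutathione to electrophiles and belongs to a cluster of similar Gstm genes between which reads may be split, had 39, 57, 15 and 37 raw counts in vehicle, 46, 24, 30 and 65 at day 5 and 27, 33, 21 and 2 at day 10. The range within a group was wide: day 10 replicate 5 had 1.14 CPM where the other day 10 libraries had 13.2 to 22.7. In vehicle, replicate 5 had 7.61 CPM and the others 15.9 to 16.8. Group means were 14.1 ± 4.35 CPM in vehicle, 19.5 ± 9.47 at day 5 and 12.7 ± 8.84 at day 10, and all 3 groups overlapped. The edgeR log2 fold change was 0.44 (SE 0.42, adjusted p = 0.662) at day 5 and −0.19 (SE 0.44, adjusted p = 0.843) at day 10 against vehicle. Without day 10 replicate 5 the latter changed sign, to 0.20.

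Prdx1, a peroxiredoxin of the cytosol, had 8, 13, 11 and 11 raw counts in vehicle, 15, 9, 9 and 16 at day 5 and 15, 5, 11 and 4 at day 10. No library was above 16 counts, and the groups overlapped. The summed counts were 43 in vehicle, 49 at day 5 and 35 at day 10. At day 10 against vehicle the ratio of summed counts, each divided by the scaled depth of its group, was 1.23, with an exact 95% interval of 0.762 to 1.96 that covers counting error only. The edgeR log2 fold change there was 0.24 (SE 0.47, 95% interval −0.73 to 1.22, adjusted p = 0.800), and without day 10 replicate 1 it was −0.04.

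Hmox1, the inducible heme oxygenase and a textbook target of Nrf2, was close to the limit of detection. Its raw counts were 2, 0, 0 and 2 in vehicle, 2, 0, 3 and 3 at day 5 and 0, 0, 0 and 0 at day 10. The sums of 4, 8 and 0 counts were tested by exact two-sided permutation of the 8 libraries of each comparison on CPM. The exact p was 0.429 for day 10 against vehicle, 0.314 for day 5 against vehicle and 0.143 for day 10 against day 5, each adjusted to 0.857 over 6 tests (Hmox1 and Selenop in 3 comparisons). The smallest p that 70 splits allow is 0.0286. For counting error alone, exact 95% intervals of the ratio of summed counts, relative to scaled depth, reached up to 2.28 for day 10 over vehicle, ran from 0.636 to 10.8 for day 5 over vehicle, and reached up to 0.743 for day 10 over day 5. The 0 counts at day 10 allow up to 1.81 CPM in the shallowest library taken alone, on its unscaled total, while the day 5 mean was 0.940 ± 0.691 CPM. Over the summed libraries the limit of 0.743 lies below equal levels of day 10 and day 5, but it leaves out the spread between libraries. No difference of Hmox1 passed the permutation test, which could not decide the question at this size.

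Pon2 was lower at day 5 than in vehicle. Its raw counts were 127, 147, 77 and 99 in vehicle (52.7, 41.1, 39.1 and 44.8 CPM), 49, 55, 42 and 34 at day 5 (20.8, 26.5, 19.6 and 17.1 CPM) and 103, 28, 66 and 53 at day 10 (53.0, 19.2, 41.4 and 30.3 CPM). All 4 day 5 libraries lay below all 4 vehicle libraries, as for 5.8% of all tested rows (11.7% without overlap in either direction). The day 10 libraries ranged from below the day 5 mean to above the highest vehicle library. Means were 44.4 ± 6.01, 21.0 ± 3.94 and 36.0 ± 14.5 CPM. The edgeR log2 fold change was −1.08 at day 5 against vehicle, a level 2.11-fold lower (SE 0.24, 95% interval −1.58 to −0.58, adjusted p = 0.0384). At day 10 against vehicle it was −0.29 (SE 0.23, adjusted p = 0.482), and the exposed groups differed by 0.79 (SE 0.25, 95% interval 0.27 to 1.30, adjusted p = 0.0444), with Pon2 higher at day 10 in groups that overlapped.

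Both Pon2 calls were near the threshold. For day 5 against vehicle the log2 fold change stayed between −1.20 and −0.98 when any 1 library was left out, but the adjusted p was 0.184, 0.108 and 0.0888 without vehicle replicates 2, 4 and 6, and 0.145, 0.0720, 0.0734 and 0.112 without day 5 replicates 5, 6, 7 and 8. Without day 10 replicate 3, which enters the estimate of the spread, it was 0.0508. For day 10 against day 5 the adjusted p was 0.131, 0.123 and 0.0614 without day 10 replicates 1, 3 and 5, and 0.102, 0.107 and 0.121 without day 5 replicates 5, 7 and 8. Leaving out vehicle replicate 2, 4, 5 or 6 gave 0.0576, 0.0535, 0.0526 and 0.0597. With day 10 replicate 1 as the sole day 10 library this difference was 1.33 (adjusted p = 0.156).

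Gm44424, a gene model of 1826 exon bases on the other strand from Pon2, did not follow the Pon2 row at day 5. It had 126, 194, 88 and 106 raw counts in vehicle, 98, 106, 134 and 84 at day 5 and 94, 41, 22 and 46 at day 10. Per kilobase its mean over 12 libraries was 23.4 CPM against 4.61 for Pon2, although the 680 shared bases are 37.2% of its exons and 9.27% of those of Pon2. Its edgeR log2 fold change was −0.02 (SE 0.23, adjusted p = 0.983) at day 5 and −0.76 (SE 0.25, adjusted p = 0.0601) at day 10 against vehicle. Between the exposed groups it was −0.74 (SE 0.25, adjusted p = 0.0566). Apart from leaving out a library, 4 of 11 other settings called Gm44424 at day 10 against vehicle: no filter, the replicate block, the DESeq2 test and limma-voom. At day 10 against day 5 it was also 4 of 11. Day 10 replicate 1 had 94 counts and the other day 10 libraries 22 to 46. Without replicate 1 the log2 fold change was −1.13 with an adjusted p of 0.00061 by edgeR. Leaving out that library raised the calls in general, from 7.08% to 19.4% of all tested rows at day 10 against vehicle. This background holds for the other results below that leave it out.

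Ikbkg was higher at day 5 than in vehicle. Its raw counts were 265, 302, 180 and 205 in vehicle (110, 84.5, 91.4 and 92.9 CPM), 363, 317, 253 and 289 at day 5 (154, 152, 118 and 146 CPM) and 245, 154, 159 and 185 at day 10 (126, 106, 99.8 and 106 CPM). The 4 day 5 libraries lay above all 4 vehicle libraries, as for 5.86% of all tested rows, and the day 10 libraries lay between, overlapping both groups. Means were 94.7 ± 10.8, 143 ± 16.7 and 109 ± 11.5 CPM. The edgeR log2 fold change at day 5 was 0.59, a level 1.51-fold higher (SE 0.14, 95% interval 0.30 to 0.88, adjusted p = 0.0469). It was 0.21 (SE 0.14, adjusted p = 0.386) at day 10 against vehicle and −0.38 (SE 0.14, adjusted p = 0.0848) between the exposed groups.

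The Ikbkg call at day 5 also sat at the threshold. The log2 fold change lay between 0.55 and 0.68 without any 1 library, while the adjusted p was 0.109, 0.156, 0.0560 and 0.106 without vehicle replicates 2, 4, 5 and 6. It was 0.182, 0.132 and 0.110 without day 5 replicates 5, 6 and 8, and 0.0570 and 0.0511 without day 10 replicates 3 and 5. Without day 10 replicate 1, by contrast, day 10 against day 5 passed the threshold, at −0.46 with an adjusted p of 0.0186. That fit called 19.5% of all tested rows in this comparison, beside 10.1% with all libraries.

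G6pdx, the first and rate-limiting enzyme of the pentose phosphate pathway, showed no call through its own row. It had 67, 141, 54 and 75 raw counts in vehicle, 65, 68, 73 and 54 at day 5 and 60, 39, 54 and 66 at day 10, which is 32.2 ± 5.71, 30.4 ± 3.51 and 32.3 ± 4.63 CPM. The groups overlapped and their means differed by less than the spread within each. The edgeR log2 fold change was −0.09 (SE 0.19, 95% interval −0.49 to 0.31, adjusted p = 0.874) at day 5 and 0.00 (SE 0.20, 95% interval −0.42 to 0.42, adjusted p = 0.999) at day 10 against vehicle. Per kilobase, the Ikbkg row held 14.2 CPM and the G6pdx row 10.3 over all libraries, and which of the 2 genes gave the reads of the Ikbkg row cannot be told apart.

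**Figure D3:**
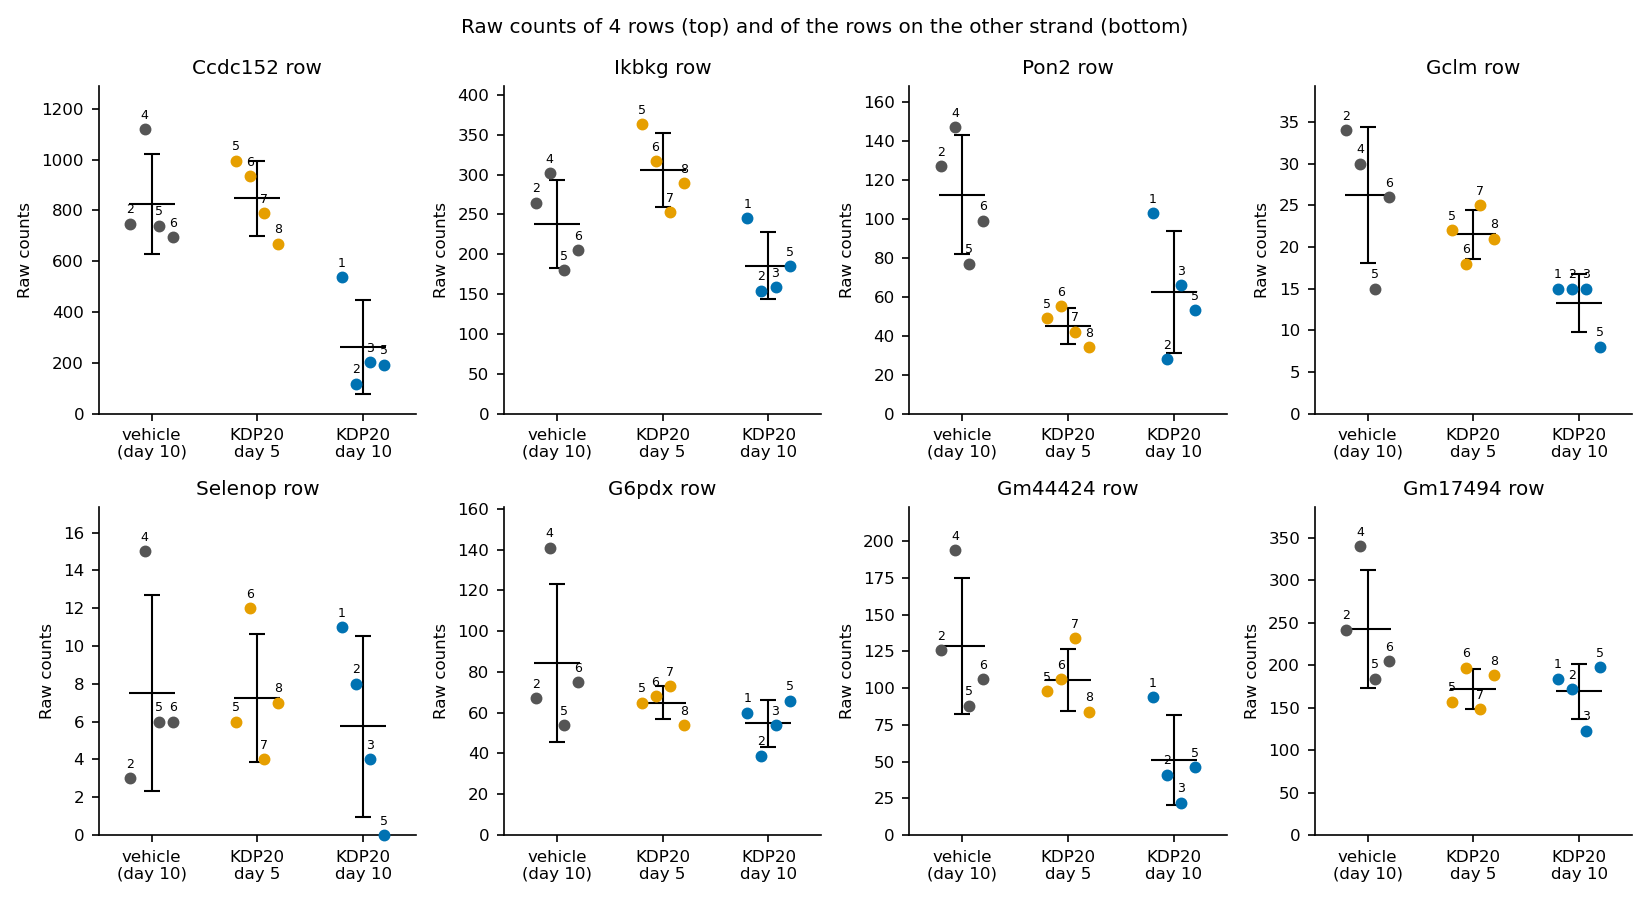
Raw counts per library of Ccdc152, Ikbkg, Pon2 and Gclm (top) and of the rows on the other strand, Selenop, G6pdx, Gm44424 and Gm17494 (bottom), each with its own axis from 0. Points carry replicate numbers and bars are the mean and SD of 4 libraries; the Selenop row stays at 15 counts or fewer while the Ccdc152 row has 117 to 1120.

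Taldo1 had the lowest level per length at day 10 of the 8 tested rows, at 0.448 CPM per kb. Its raw counts were 12, 24, 6 and 17 in vehicle (4.98, 6.71, 3.05 and 7.70 CPM), 14, 8, 8 and 13 at day 5 (5.95, 3.85, 3.74 and 6.55 CPM) and 4, 1, 0 and 2 at day 10 (2.06, 0.687, 0 and 1.14 CPM). Every day 10 library was below every vehicle and every day 5 library, as for 5.01% of all rows against vehicle (9.98% without overlap in either direction) and 6.76% against day 5 (12.5%). Means were 5.61 ± 2.05 CPM in vehicle, 5.02 ± 1.44 at day 5 and 0.972 ± 0.863 at day 10, so vehicle and day 5 did not differ beyond their spread. With 7 counts in 4 day 10 libraries and 59 in vehicle, the level relative to the scaled depth was 5.59 times higher in vehicle, with an exact 95% interval of 2.55 to 14.5 for counting error alone. Against the 43 counts of day 5 the same ratio was 4.84 (2.16 to 12.8).

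The edgeR log2 fold change of Taldo1 was −2.40 at day 10 against vehicle (SE 0.62, 95% interval −3.68 to −1.12, adjusted p = 0.0222) and −2.23 at day 10 against day 5 (SE 0.63, 95% interval −3.54 to −0.92, adjusted p = 0.0266). At day 5 against vehicle it was −0.17 (SE 0.48, adjusted p = 0.904). Taldo1 passed the count filter on vehicle and day 5 libraries, with 4 counts or fewer in each day 10 library. With the 8 libraries of vehicle and day 10 alone it had too few counts to be tested. Its call thus depends on the groups where it was high, and is no independent support for a fall. Against vehicle, the adjusted p was 0.0506, 0.0677 and 0.0671 without vehicle replicates 2, 4 and 6, and 0.0840, 0.0709 and 0.0806 without day 10 replicates 2, 3 and 5, with log2 fold changes from −2.46 to −2.03. Without day 10 replicate 1 it was −3.07 (adjusted p = 0.00527), and with that library as the sole one of day 10 it was −1.44 (adjusted p = 0.921). Against day 5 the adjusted p was 0.0728 and 0.0710 without day 5 replicates 5 and 8, and 0.0814, 0.0890 and 0.0717 without day 10 replicates 2, 3 and 5, and with replicate 1 as the sole day 10 library the log2 fold change was −1.26 (adjusted p = 0.771).

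Ccdc152, which encodes a coiled-coil domain protein and ends within the end of Selenop, was the most abundant of the 9 rows and fell at day 10. It had 747, 1120, 739 and 693 raw counts in vehicle (310, 313, 375 and 314 CPM), 996, 935, 788 and 669 at day 5 (423, 450, 368 and 337 CPM) and 536, 117, 203 and 192 at day 10 (276, 80.3, 127 and 110 CPM). All 4 day 10 libraries were below the 8 others, as in Taldo1, with replicate 1 close to the vehicle range and replicates 2, 3 and 5 far under it. Means were 328 ± 31.4, 394 ± 51.2 and 148 ± 87.2 CPM, and the vehicle and day 5 groups overlapped. The level was 2.20-fold lower at day 10 than in vehicle, a log2 fold change of −1.14 (SE 0.23, 95% interval −1.61 to −0.66, adjusted p = 0.00843 by edgeR), and 2.64-fold lower than at day 5, a log2 fold change of −1.40 (SE 0.23, 95% interval −1.88 to −0.93, adjusted p = 0.00123 by edgeR).

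The fall against day 5 passed the threshold without any 1 of the 12 libraries. Against vehicle it missed it in 1 of those 12 fits, without day 10 replicate 5 (−1.01, adjusted p = 0.0510). Without day 10 replicate 1 the log2 fold change was −1.63 (adjusted p = 2.85e-08). With that replicate as the sole day 10 library it was −0.25 against vehicle (adjusted p = 0.941) and −0.52 against day 5 (adjusted p = 0.604). With a correction of each library for the GC content of the rows' transcripts, the log2 fold change against vehicle was −0.68 (adjusted p = 0.0299). At day 5 against vehicle it was 0.27 in the uncorrected fit (SE 0.22, adjusted p = 0.608 by edgeR).

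Selenop, which supplies selenium to glutathione peroxidases and thioredoxin reductases, was almost without counts in its own row. It had 3, 15, 6 and 6 raw counts in vehicle, 6, 12, 4 and 7 at day 5 and 11, 8, 4 and 0 at day 10, a sum of 82 against 7735 for Ccdc152. Per kilobase of exon the Ccdc152 row was 189 times higher. Exact two-sided permutation tests of Selenop gave p = 0.714 for day 10 and 0.600 for day 5, each against vehicle, and 0.971 between the exposed groups. Whether the reads of the Ccdc152 row came from Ccdc152 or from Selenop cannot be told apart from these counts.

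Other values moved with these groups. CT010467.2 was 2.61-fold higher at day 10 than in vehicle (log2 fold change 1.39, SE 0.22, adjusted p = 0.00500 by edgeR) and 1.92-fold higher than at day 5 (0.94, SE 0.21, adjusted p = 0.00726). With its share as a covariate the log2 fold change of Ccdc152 was −0.26 against vehicle and −0.74 against day 5 (adjusted p = 0.999 and 0.294), and that of Taldo1 was −1.57 and −1.60 (adjusted p = 0.999 and 0.553). The share is high in day 10 replicates 2, 3 and 5 only, so it goes largely with the group. Share and group cannot be told apart by this covariate, which leans on day 10 replicate 1. In that edgeR fit 0 of the 13181 rows were called at day 10 against vehicle and 500 had an unadjusted p under 0.05. For day 5 against vehicle the same covariate gave −0.89 for Pon2 and 0.62 for Ikbkg (adjusted p = 0.0231 and 0.0151). The summed own rows of the 8 sustentacular cell and Bowman gland markers ran from 629 to 1060 CPM in vehicle, 474 to 1159 at day 5 and 382 to 647 at day 10. The single rows did not move together: at day 10 against vehicle 4 were positive and 4 negative, with 1 called lower and a median log2 fold change of −0.09. At day 5, the 7 ciliated cell markers summed to 332 to 396 CPM against 440 to 527 in vehicle, and the 8 T and B cell markers, of which 4 had a count in every library, to 444 to 475 against 361 to 392. The ciliated rows were negative in 7 of 7 with 0 called, while only 2 T and B cell rows were tested, 1 positive and 1 negative. The 8 neutrophil markers summed to 69.02 to 271 CPM in vehicle, 95.7 to 224 at day 5 and 52.5 to 170 at day 10. The 1 row opposite such a marker was at 2.90 to 19.9 CPM in vehicle and 0.504 to 33.1 at day 5. At day 10 it was at 0 to 0.628 CPM, called lower than in vehicle (log2 fold change −4.59) and than at day 5 (−4.89). Against vehicle at day 10, 1 row each opposite olfactory sensory neuron and sustentacular cell markers was also called lower. So was 1 own row each of the ciliated and of the T and B cell markers, while 1 erythroid own row was called higher. The 8 skeletal muscle markers, of which 3 had a count in every library and none was at 0 throughout, summed to 139 to 219 CPM in their own rows at day 10 against 104 to 135 in vehicle and 97.2 to 148 at day 5, and 1 of the 3 tested was called higher at day 10 than in vehicle. The 6 rows opposite muscle markers summed to 31.5 to 224 CPM in vehicle, 35.0 to 2071 at day 5 and 55.2 to 1222 at day 10. Their median log2 fold change against vehicle was 1.97 at day 10, with 6 of 6 positive and 0 called, and 3.19 at day 5, with 5 of 6 positive and 1 called. The part of these cell types and of CT010467.2 in the results on Pon2, Ikbkg, Taldo1 and Ccdc152 was not tested.

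**Figure D4:**
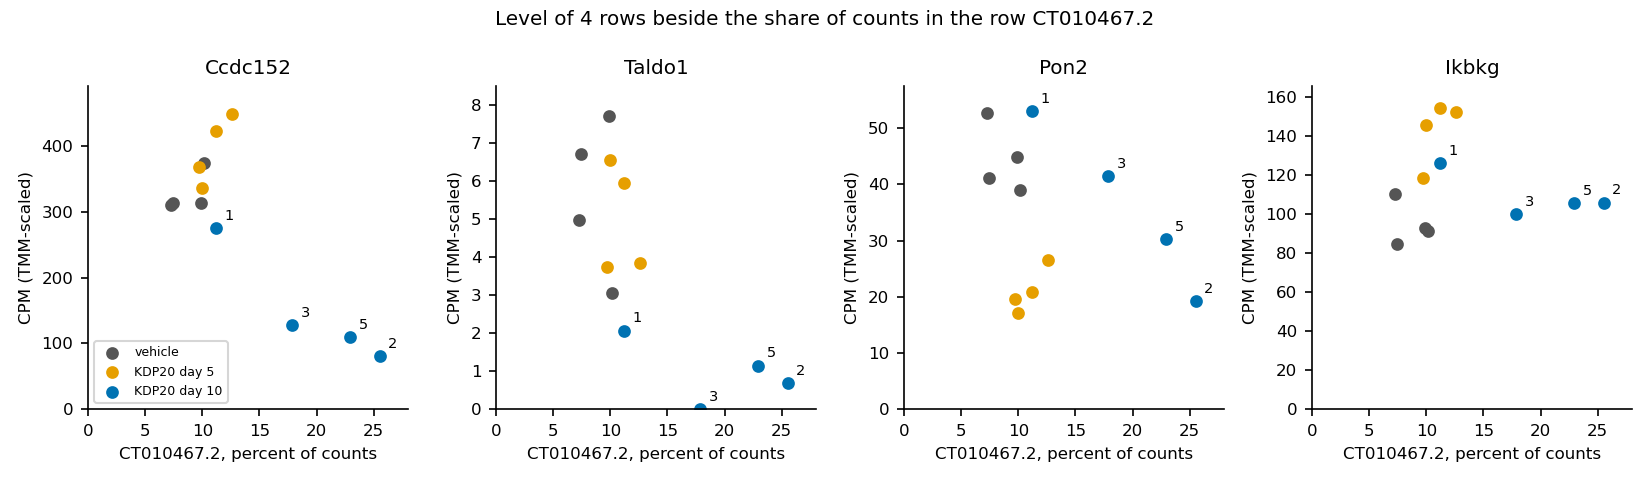
Level of Ccdc152, Taldo1, Pon2 and Ikbkg in CPM (TMM-scaled) against the percent of counts taken by the row CT010467.2, with 1 point per library coloured by group and day 10 replicates numbered. Day 10 replicates 2, 3 and 5, at 17.9% to 25.5%, have the lowest Ccdc152 and Taldo1 levels, and replicate 1, at 11.2%, lies nearer to the other groups.

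The wider pathway was described with 11 lists of 120 genes, of which 119 matched 1 row. Only 59 of these genes passed the count filter through their own row: 9 of 14 for glutathione synthesis and recycling, 7 of 22 glutathione S-transferases, 7 of 13 of the peroxiredoxin and thioredoxin system, and 5 of 11 of the pentose phosphate pathway. Nqo1, Srxn1, Slc7a11 and Txn1, which Nrf2 is known to induce, were among those that did not. Of the 59 own rows, 0 rose and 1 fell at day 10 against vehicle (1.69% called), 1 rose and 1 fell at day 5 against vehicle (3.39%), and 1 rose and 2 fell at day 10 against day 5 (5.08%). At an unadjusted p under 0.05 the numbers were 9, 5 and 11 (15.3%, 8.47% and 18.6%), each a smaller share than the 23.8%, 16.3% and 24.7% of all rows. Members made up all of these calls but 1, Pstk. The median log2 fold change of the own rows was −0.18, −0.03 and −0.12 in the 3 comparisons. Rows opposite a list gene numbered 27, and 26 were tested. Ikbkg and G6pdx lie opposite each other and count among these as well as among the own rows. Of the 26, 1 rose and 2 fell at day 10 against vehicle (11.5% called, beside 7.08% of all rows). At day 5 against vehicle 2 rose (7.69% beside 0.66%), and 6 fell at day 10 against day 5 (23.1% beside 10.1%). The member Ikbkg was 1 of the 2 that rose, and the member Ccdc152 was among those that fell in both day 10 comparisons. These shares thus rest in part on members chosen with earlier results known.

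**Figure D5:**
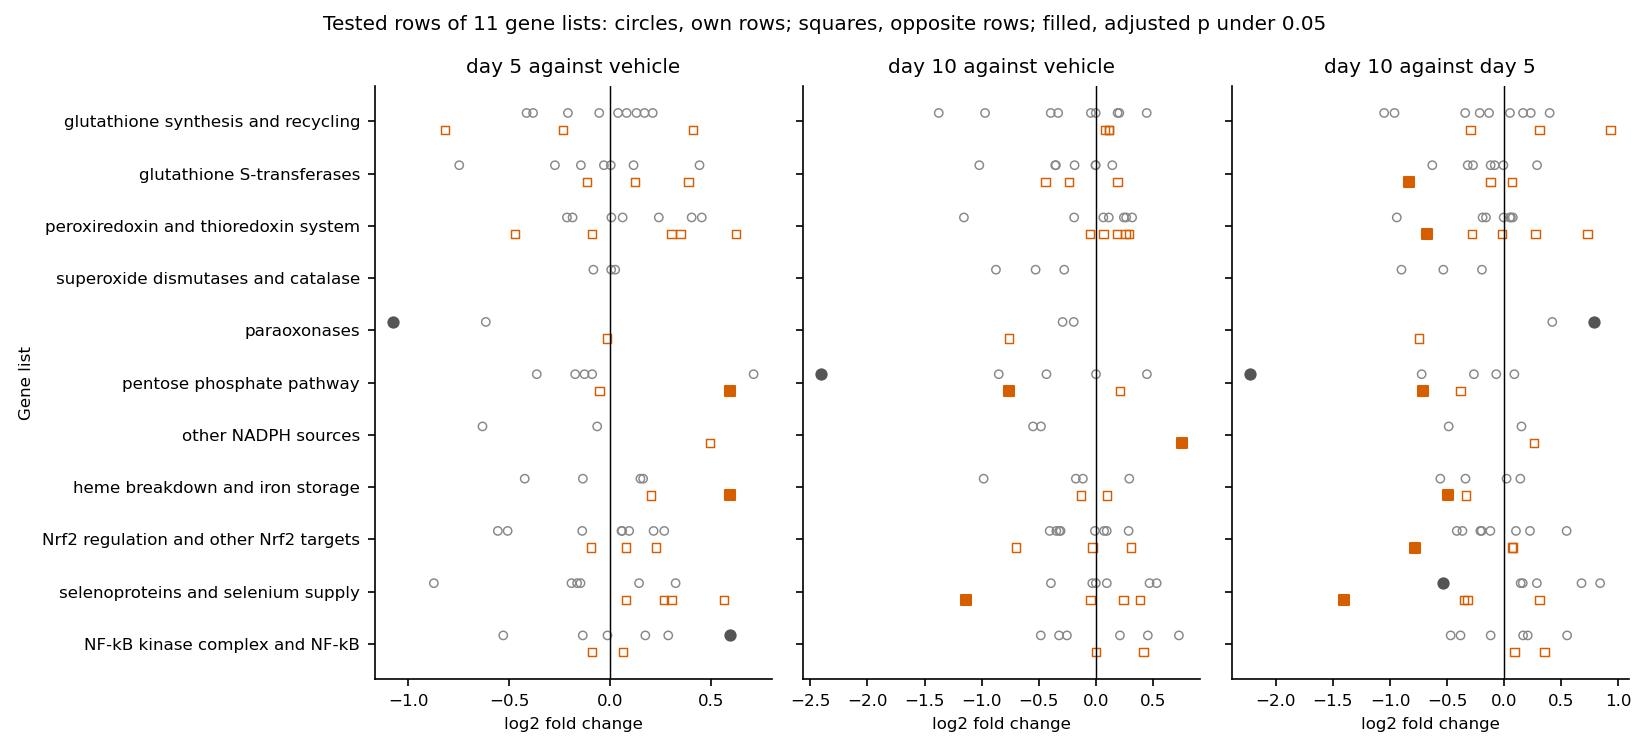
Fitted log2 fold change of each tested row of the 11 gene lists, in 1 panel per comparison, with circles for rows of the genes themselves and squares for rows on the other strand. Filled symbols passed an adjusted p under 0.05; at day 10 against day 5 all 6 filled squares lie below 0.

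Among the enzymes around glutathione, own rows with the smallest p at day 10 against vehicle did not pass the threshold. Gpx6, a glutathione peroxidase of the olfactory epithelium, was at 8.48 ± 2.18 CPM in vehicle and 3.27 ± 2.53 at day 10 (log2 fold change −1.38, adjusted p = 0.0732 by edgeR). Gsta3, an alpha-class transferase, was at 14.7 ± 2.34 and 7.03 ± 4.63 CPM (−1.02, adjusted p = 0.0893), and Sod1, the cytosolic superoxide dismutase, at 52.9 ± 6.69 and 36.4 ± 11.8 CPM (−0.53, adjusted p = 0.114). Not all such rows were lower: the peroxiredoxin Prdx5 was at 110 ± 21.5 and 136 ± 6.06 CPM (0.32, adjusted p = 0.171 by edgeR). Positive were 3 of 9 tested rows of glutathione synthesis and recycling and 1 of 7 transferases. So were 5 of 7 of the peroxiredoxin and thioredoxin system and 0 of 3 superoxide dismutases and catalase. Gsta3 and Sod1 passed without day 10 replicate 1 (−1.61 and −0.68, adjusted p = 0.00325 and 0.0218), and Gpx6 without replicate 3 (−1.99, adjusted p = 0.0364). Rows opposite such enzymes also differed between the exposed groups: 4933431E20Rik, opposite the transferase Gstm5, was at 163 ± 12.8 CPM at day 5 and 91.3 ± 40.1 at day 10 (−0.83, SE 0.21, adjusted p = 0.0144), and Rnaseh2a, opposite the peroxiredoxin Prdx2, at 102 ± 18.4 and 63.8 ± 13.1 CPM (−0.67, SE 0.17, adjusted p = 0.0138). Gstm5 and Prdx2 themselves had −0.32 and −0.19 in that comparison, with adjusted p of 0.771 and 0.879 by edgeR. The call on 4933431E20Rik was lost without day 10 replicate 2, 3 or 5 (adjusted p = 0.0646, 0.0675 and 0.0572), and that on Rnaseh2a without day 10 replicate 2 or 3 or day 5 replicate 5 (0.0646, 0.0573 and 0.0658).

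In the pentose phosphate list, Rpe, ribulose-phosphate epimerase, did not pass the threshold at day 10 against vehicle. Its own row was at 41.0 ± 7.60 CPM in vehicle and 22.2 ± 15.1 at day 10 (log2 fold change −0.85, adjusted p = 0.0865 by edgeR), and at −1.39 (adjusted p = 0.000522) without day 10 replicate 1. Kansl1l, on the other strand from Rpe, fell from 248 ± 20.4 CPM in vehicle and 239 ± 17.9 at day 5 to 146 ± 43.6 at day 10 (−0.76, SE 0.15, adjusted p = 0.00873, and −0.71, SE 0.16, adjusted p = 0.00593). It missed the threshold against vehicle without day 10 replicate 5 (−0.69, adjusted p = 0.0510), and with the GC correction (−0.39, adjusted p = 0.0989), which also gave −0.42 against day 5 (adjusted p = 0.0451). A230065N10Rik, opposite the malic enzyme Me3, another source of NADPH, rose from 29.8 ± 6.52 to 50.2 ± 12.8 CPM at day 10 (0.75, SE 0.21, adjusted p = 0.0332), and Me3 itself had −0.48 (adjusted p = 0.374). That call was lost without vehicle replicate 2, 4 or 6 (adjusted p = 0.0597, 0.105 and 0.100) or day 10 replicate 2, 3 or 5 (0.0958, 0.0668 and 0.154), with the 8 compared libraries alone (0.75, adjusted p = 0.0670) and with the GC correction (0.58, adjusted p = 0.123).

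Iron, selenium and regulator lists held the remaining calls. Gm10252, opposite the ferritin light chain gene Ftl1, was at 3340 ± 428 CPM in vehicle, 5041 ± 589 at day 5 and 3576 ± 614 at day 10. It rose at day 5 against vehicle (0.59, SE 0.13, adjusted p = 0.0384 by edgeR) and was lower at day 10 than at day 5 (−0.50, SE 0.13, adjusted p = 0.0212), the same order of groups as Ikbkg. Ftl1 itself had only 9 to 30 counts per library. The first Gm10252 call was lost without vehicle replicate 2, 4 or 6 (adjusted p = 0.168, 0.129 and 0.0945), day 5 replicate 5, 6 or 8 (0.171, 0.130 and 0.0663) or day 10 replicate 3 (0.0508) and with the GC correction (0.57, adjusted p = 0.0724), and the second without day 5 replicate 5 or 6 (0.0718 and 0.0727) or day 10 replicate 2, 3 or 5 (0.0804, 0.0861 and 0.0660). Pstk, the kinase that makes phosphoseryl-tRNA for selenocysteine and lies opposite Ikzf5, was lower at day 10 than at day 5, at 584 ± 142 against 847 ± 68.1 CPM (−0.54, SE 0.14, adjusted p = 0.0175). It lost that call without day 5 replicate 8 (0.0563) or day 10 replicate 2, 3 or 5 (0.0713, 0.0732 and 0.0737), or with the GC correction (−0.37, adjusted p = 0.0796). Tmem184a, opposite the small Maf gene Mafk whose product pairs with Nrf2, was also lower at day 10 than at day 5 (−0.78, SE 0.25, adjusted p = 0.0471), but lost the call without any of 10 libraries (adjusted p = 0.0525 to 0.170): vehicle replicates 2, 4 and 5, day 5 replicates 5, 6, 7 and 8 and day 10 replicates 2, 3 and 5. It also missed the threshold with the 8 compared libraries alone (−0.78, adjusted p = 0.0685), and was at −1.20 (adjusted p = 0.000205) without day 10 replicate 1. With the CT010467.2 share as covariate, or with replicate 1 as the sole day 10 library, the adjusted p of each of the called list rows that are no members was 0.423 or higher in its day 10 comparison.

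The rows whose level over the 12 libraries was most like that of each member were named by Pearson r of log2 CPM, as a description. For Ccdc152 they were Kdm1b, opposite Dek, and Styx, opposite Gnpnat1 (r = 0.99 for both). For Taldo1 they were Rfc4, opposite Eif4a2, and Ubald2 (0.93 and 0.92), for Pon2 Timp3, opposite Syn3, and Gm49001 (0.95 and 0.89), and for Ikbkg Gm44394 and Gm44662 (0.93 and 0.90). The low rows were nearest to Noxo1 and Mical2 for Gclc (0.88 for both), Chd2 and Nr4a1 for Gclm (0.93 and 0.90), Rab15 and Acsm4 for Gstm1 (0.91 and 0.90) and Rgma and Fn1 for Prdx1 (0.90 and 0.86). All points of a correlation share the libraries, with their depth and their CT010467.2 share, and the nearest rows were picked out of all tested rows.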

How the data were processed

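RNA sequencing of nasal tissue was deposited as 1 table of raw counts for 12 libraries. Per the submitters' processing notes, the authors used FastQC, Trim Galore, STAR and HTSeq with build mm10 to make these counts. No source used here gives their versions, the annotation, the counting mode or the strand setting. Per the labels' protocols, an RNeasy kit was used for the RNA and a SMARTER mRNA-Seq kit for the libraries.

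Groups come from the sample titles. Identifiers of 55227 of 55487 rows were found in GENCODE M21, and rows count as opposite where their exons overlap by at least 50 bases on the other strand. After filterByExpr and TMM scaling, rows were tested by the quasi-likelihood F test of edgeR 4.0.16 in R 4.3.3, with all 12 libraries in 1 model, group as the sole term and Benjamini-Hochberg adjustment over 13181 rows. The common biological coefficient of variation was 0.213. The standard error is the log2 fold change divided by the root of its F statistic. Rows too low for the filter got an exact permutation test in Python 3.11.15. Depth ranged from 1658420 to 3227138 counts. The fit was tested on simulated data.

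The members and lists were chosen with earlier results of these data known, so their calls are no independent support. Named genes are the members, rows opposite to them, list genes that were called or had a small p, for each tested member the 2 rows with the highest Pearson r, and CT010467.2. Alternatives were other scalings, filters and tests (DESeq2 1.42.0 and limma 3.58.1), the compared libraries alone, a replicate block, the CT010467.2 share as covariate, and leaving out each library; a GC correction from transcript sequence and day 10 replicate 1 as the sole day 10 library were chosen after seeing the data.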

Additional observations from a re-analysis of the deposited data

Results flagged for a closer look

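In vehicle, Gstm1 was lowest in replicate 5 by a gap to the nearest other library that was 0.911 of the group's range, at 7.61 CPM (15 counts) against 15.9 to 16.8 CPM. The same library had the highest Ccdc152 level, with a gap of 0.940 of the range, at 375 CPM against 310 to 314 CPM. Both gaps exceed the 95% critical value of Dixon's test for 4 samples. There were 38 groups tested, and chance flags about 1 in 20 groups.

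For 3 members the edgeR test of day 10 against day 5, already given above, passed the threshold. It equals the difference between the 2 exposed groups in their change from the same vehicle libraries. Vehicle is labelled day 10 only, so at day 5 the exposure and the day of collection cannot be told apart. The difference was 0.79 for Pon2 (adjusted p = 0.0444), −2.23 for Taldo1 (0.0266) and −1.40 for Ccdc152 (0.00123). Pon2 was below vehicle at day 5 and not called at day 10, while Taldo1 and Ccdc152 were below vehicle at day 10 and not called at day 5.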

How the results depend on the processing

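Of the 16 called differences, 0 changed sign and each lost its call under at least 1 alternative; of 30 uncalled ones, 12 changed sign and 7 passed the threshold somewhere. The number of members called at day 10 against vehicle, 2 in the report, was 1 with a filter at 10 CPM, with the 8 compared libraries alone, with the DESeq2 test and with the replicate block, and 0 with the CT010467.2 share as covariate or with day 10 replicate 1 as the sole day 10 library. Taldo1 had too few counts to be tested in the first 3 of these settings. At day 5 against vehicle the number was 2, and 0 with the replicate block. At day 10 against day 5 it was 3, then 1 with the block or the 8 compared libraries alone, and 0 with the covariate or with replicate 1 as the sole day 10 library. Leaving out 1 library at a time gave 0 to 2, 0 to 2 and 1 to 3 members. The low rows Hmox1 and Selenop gave 0 calls throughout, but complete separation in a single comparison could not have passed their adjusted test.

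Replicate numbers did not pair the libraries: deviations from the group mean correlated at −0.09 to 0.12 between libraries that share a number, and not every library correlated best with its own number. Numbers 1, 3, 4, 7 and 8 occur in a single library each, which a block by number fits exactly. The contrasts with the block thus rest on replicates 2, 5 and 6 alone. That fit called 12.9% of all tested rows at day 10 against vehicle, beside 7.08% without the block. The shares were 0.25% beside 0.66% at day 5 against vehicle and 7.27% beside 10.1% at day 10 against day 5. Why a call ended with the block was not tested. With the replicate block, log2 fold changes were −0.96 for Pon2 and 0.70 for Ikbkg at day 5 (adjusted p = 0.189 and 0.0939), −2.31 for Taldo1 and −1.80 for Ccdc152 at day 10 against vehicle (0.160 and 4.35e-05), and 0.13 for Pon2, −2.18 for Taldo1 and −2.12 for Ccdc152 at day 10 against day 5 (0.876, 0.272 and 3.49e-05). The block also ended the calls of Rnaseh2a (−0.83, adjusted p = 0.0553) and Tmem184a (−1.13, 0.0590) at day 10 against day 5. The Pon2 difference between the exposed groups also missed the threshold with upper-quartile scaling (0.76, adjusted p = 0.0504), limma-voom (0.73, 0.0859), the covariate (1.36, 0.0971) and the 8 compared libraries alone (0.78, 0.0868).

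Signs changed as follows, none of them called in either setting. Against vehicle at day 10, the covariate gave 0.0077 for Gstm1, 0.47 for Pon2, −0.21 for Gm17494 and 0.21 for Rpe. Replicate 1 as the sole day 10 library gave 0.26 for Pon2, −0.066 for G6pdx, −0.0092 for Gm17494 and 0.065 for Rpe. The block gave −0.70 for Prdx1. G6pdx was at −0.018 with upper-quartile scaling, −0.011 with the 10 CPM filter, −0.0062 with the 8 compared libraries and −0.0055 with limma-voom. At day 5 against vehicle, Gclm was at 0.0043 with the GC correction and Taldo1 at 0.029 with the covariate. Gm44424 was at 0.00035 with DESeq2 size factors, 0.0065 with the DESeq2 test, 0.11 with the covariate and 0.070 with the GC correction. At day 10 against day 5, Gclc was at −0.17 with the block, and Prdx1 at 0.46 with the covariate, 0.024 with the GC correction and 0.43 with replicate 1 as the sole day 10 library. Leaving out 1 library moved Gstm1 from −0.58 to 0.20, Prdx1 from −0.045 to 0.49 and G6pdx from −0.081 to 0.13 at day 10 against vehicle, Gclm from −0.16 to 0.13, Taldo1 from −0.35 to 0.00065, Gm44424 from −0.15 to 0.061 and G6pdx from −0.15 to 0.042 at day 5 against vehicle, and Prdx1 from −0.45 to 0.086 at day 10 against day 5. The causes of these changes were not tested. A GC correction from genome sequence was not run.

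Calls on all rows at day 5 against vehicle, 87 in the report, ran from 5 without day 5 replicate 5 to 656 with the 8 compared libraries alone. Depth limits Hmox1, Selenop, Prdx1 and Taldo1, which had 24 counts or fewer in every library.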
